A study of Mus musculus with 16 samples.

Results

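Gja1, Gja4 and Gja5, the genes of the vascular connexins Cx43, Cx37 and Cx40, were followed across mouse endothelial cells that lacked or expressed VE-cadherin (VEC) and were sparse or confluent. All probe sets annotated to the 3 genes were taken, which gave 4 of the 24833 probe sets other than controls on both chips, for 3 of 13674 genes with a symbol. Gja1 had 2 probe sets and Gja4 and Gja5 had 1 each, all on chip A (MG_U74Av2). The genes were selected on their signals in these arrays, so their values are given as a description, with no test.

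The 16 arrays covered 4 conditions. VEC-null cells were endothelial cells obtained from murine embryonic stem cells homozygous for a null mutation of the VE-cadherin gene, and VEC-positive cells were labelled as expressing VE-cadherin with the same stem cell origin in their labels; how they came to express it is not given in the labels. Both kinds of cell were grown sparse or confluent and were then starved for 36 h in MCDB 131 medium with bovine serum albumin, so that every group, controls included, was starved. From 15 µg of total RNA, 1 labelled cRNA sample per condition was placed on 2 arrays of each chip type, chip A and chip B (MG_U74Bv2), called copies here. The copies therefore measured the same cRNA, their spread (SD, n = 2 copies) is that of the hybridisation, and there was no replicate check on a difference between conditions. VEC state and cell line coincide in this design. A difference called here one with VEC cannot be told apart from any other difference between the lines.

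Connexins are membrane proteins that assemble into hexameric hemichannels, and hemichannels of neighbouring cells dock into gap junctions that pass ions and small molecules. In blood vessels Cx40 and Cx37 are known mainly from arterial endothelium, whereas Cx43 is known from smooth muscle and from endothelium at branch points and under disturbed flow. Connexin channels lie close to adherens junctions, whose endothelial cadherin is VE-cadherin.

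The promoters of the 3 genes are shown because the genes took 3 different patterns across the same conditions. The stretches are the 250 bases before the start site of each gene in RefSeq on GRCm38.p6, read 5′ to 3′ on the strand of the gene, and all 3 genes matched by symbol. Gja1 lies on the plus strand at chr10:56377050-56377299, Gja4 on the minus strand at chr4:127314040-127314289 and Gja5 on the plus strand at chr3:97032152-97032401. Capitals mark every match to 8 short motifs searched on both strands.
Gja1: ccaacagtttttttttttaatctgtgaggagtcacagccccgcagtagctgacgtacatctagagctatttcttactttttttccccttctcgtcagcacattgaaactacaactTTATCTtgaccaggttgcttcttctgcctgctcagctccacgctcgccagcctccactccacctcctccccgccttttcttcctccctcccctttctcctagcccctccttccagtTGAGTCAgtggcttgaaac
Gja4: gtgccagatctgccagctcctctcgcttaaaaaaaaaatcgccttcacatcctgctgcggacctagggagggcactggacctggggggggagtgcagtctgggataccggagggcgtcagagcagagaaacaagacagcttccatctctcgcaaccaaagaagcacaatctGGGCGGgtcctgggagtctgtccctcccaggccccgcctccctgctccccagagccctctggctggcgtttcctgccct
Gja5: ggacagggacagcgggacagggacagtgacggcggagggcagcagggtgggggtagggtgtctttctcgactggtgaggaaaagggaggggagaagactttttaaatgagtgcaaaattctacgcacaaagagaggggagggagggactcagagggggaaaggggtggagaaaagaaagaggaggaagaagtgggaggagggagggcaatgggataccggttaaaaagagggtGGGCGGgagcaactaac
AP-1, the dimer of Jun and Fos proteins, was searched as TGANTCA. The GC box, which Sp proteins bind, was searched as GGGCGG, and the TATA box of core promoters as TATAAA. RBPJ, the factor through which Notch acts, was searched as TGGGAA. Forkhead factors were searched as GTAAACA. Smad proteins, which act downstream of TGF-beta, were searched as CAGACA. The factors of the GATA family were searched as AGATAA. TEAD factors, the partners of YAP, were searched as GGAATG. They were chosen after these sequences had been seen, and the AP-1 match in Gja1 had been noticed before the search. Gja1 held the AP-1 letters TGAGTCA from 19 to 13 bases before the start, letters present in 6.75% of 32851 promoters of the same length, and the GATA letters on the opposite strand from 135 to 130 bases before it, present in 9.99%. Gja4 held a GC box from 79 to 74 bases and Gja5 one from 17 to 12 bases before the start, a motif present in 32.7% of promoters. The letters of the other motifs were in none of the 3 windows and were found in 12.4% (TATA box), 21.6% (RBPJ), 3.17% (forkhead), 17.1% (Smad) and 12.6% (TEAD) of all promoters. The GC content was 50% for Gja1, 61.2% for Gja4 and 56.4% for Gja5, against a median of 52.4%. A match describes these letters and is not a measured binding site.

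Gja1, the most widely expressed connexin gene, was bright in VEC-null cells and dim in VEC-positive cells at both densities. Its first probe set read 8007.2 and 7902.7 on the copies of sparse VEC-null cells and 2270.1 and 2308.2 in confluent VEC-null cells. In VEC-positive cells it read 25.3 and 22.1 when sparse and 8.2 and 33.8 when confluent. Values are MAS5 signals, a linear brightness that was scaled to a common level on every array. The copies of sparse VEC-null cells lay above those of confluent VEC-null cells, and both pairs lay above all 4 VEC-positive arrays. The VEC-positive arrays of the 2 densities overlapped.

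The mean signal of this Gja1 probe set in confluent cells was 21.0 ± 18 (SD, n = 2 copies) with VEC and 2289.1 ± 27 without it. On the scale of log2(signal + 50), which damps differences between dim signals, the difference of VEC-positive minus VEC-null cells was -5.07 when confluent and -6.76 when sparse, or 33.5-fold and 108.6-fold lower on the signal + 50. In VEC-null cells the difference of confluent minus sparse cells was -1.77, or 3.42-fold lower. In VEC-positive cells the same difference was -0.08 between overlapping copies, and its sign turned with the copy used, since 1 copy of each condition gave -0.37 and the other 0.22. In bulk RNA, fewer cells expressing a gene and less RNA per cell cannot be told apart.

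The second Gja1 probe set had the same order of the VEC-null conditions at lower signals. It read 1518.8 and 1304.8 in sparse and 169.5 and 204.3 in confluent VEC-null cells. In VEC-positive cells it read 9.7 and 1.0 when sparse and 4.4 and 17.2 when confluent. These VEC-positive copies overlapped again and lay below every VEC-null copy. Its log2 differences between VEC-positive and VEC-null cells were -1.97 when confluent and -4.72 when sparse, and its density difference in VEC-null cells was -2.63, so that the probe sets shared the directions of these 3 differences and differed in size.

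Gja4, which encodes the endothelial connexin Cx37, stood out in 1 condition only, confluent VEC-null cells. The copies read 673.8 and 648.2 there, 13.8 and 10.6 in sparse VEC-null cells, 18.2 and 14.4 in sparse VEC-positive cells and 18.3 and 30.8 in confluent VEC-positive cells. The other 6 arrays thus lay between 10.6 and 30.8, far below the filter of 160.3 on chip A, the median probe set of the chip. Their order (confluent VEC-positive, sparse VEC-positive, sparse VEC-null) had copies that did not overlap between neighbours, but these gaps, of 24.6 to 16.3 and of 16.3 to 12.2 in mean signal, were within the range in which the copies of 1 cRNA differed (18.3 against 30.8).

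The mean Gja4 signal was 661.0 ± 18 (SD, n = 2 copies) in confluent VEC-null cells. Confluent VEC-positive cells, at 24.6 ± 8.8, differed from them by -3.26 on the log2(signal + 50) scale, or 9.57-fold. Sparse VEC-null cells, at 12.2 ± 2.3, were lower than confluent ones by a difference of 3.52, or 11.4-fold. In sparse cells the lines differed by 0.09, and in VEC-positive cells the densities differed by 0.16. Both large differences share the confluent VEC-null arrays. The deposited tables carry no detection calls, so whether the low readings lie above background was not tested.

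Gja5, the gene of the arterial connexin Cx40, stayed below the filter in all 4 conditions. Its copies read 141.8 and 119.8 in sparse VEC-null, 110.8 and 116.7 in confluent VEC-null, 79.6 and 99.2 in sparse VEC-positive and 121.5 and 124.8 in confluent VEC-positive cells. The sparse VEC-positive arrays were the lowest and overlapped no other pair, and the copies of sparse VEC-null cells overlapped those of confluent VEC-positive cells. Its log2 differences were 0.08 and -0.38 between the lines (confluent, sparse) and -0.14 and 0.32 between the densities (VEC-null, VEC-positive), each under the 1 log2 unit used for a call. Gja5 was therefore left out of the counts that follow.

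**Figure D1:**
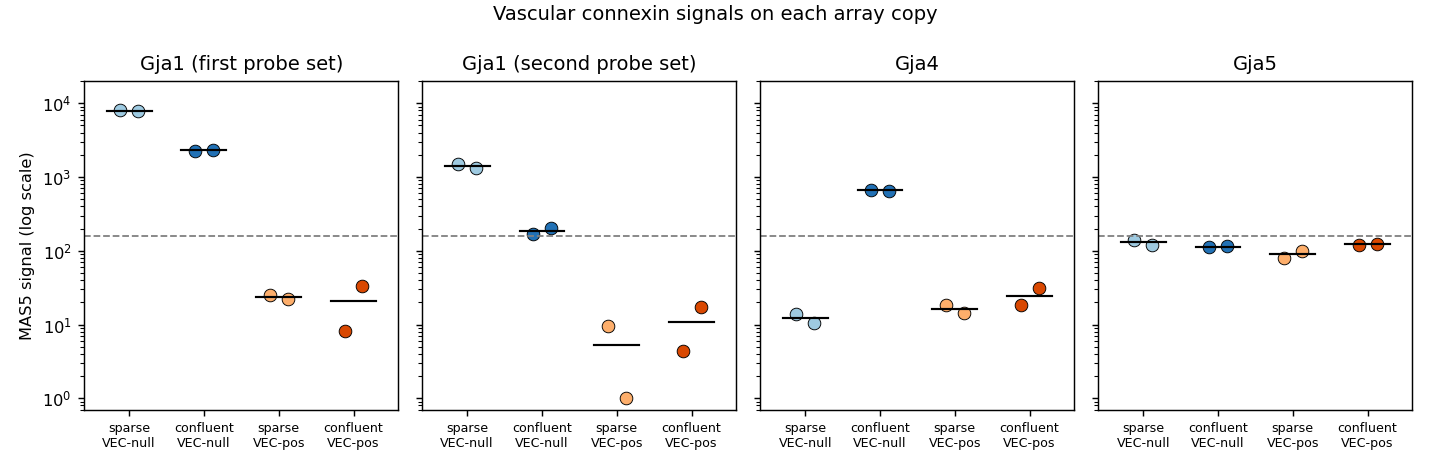
MAS5 signal (log axis) of each probe set in the 4 conditions; each point is 1 array copy, horizontal bars are means of 2 copies, and the dashed line is the filter at 160.3. Gja1 is bright in VEC-null cells only, Gja4 reaches 661.0 in confluent VEC-null cells only, and Gja5 stays below the line on all 8 arrays.

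With density, VEC-null cells thus had less Gja1 signal, more Gja4 signal and a Gja5 difference under the threshold, while in VEC-positive cells all 3 genes differed by less than 1 log2 unit. The density difference in VEC-positive cells minus that in VEC-null cells was 1.70 for the first Gja1 probe set, 2.76 for the second, -3.35 for Gja4 and 0.46 for Gja5, on the log2(signal + 50) scale.

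To place these sizes, a gene was called where its means differed by at least 1 on the log2(signal + 50) scale and the copies of one condition lay wholly above those of the other. In confluent cells 3.51% of 9224 tested genes were called lower with VEC and 4.73% higher; Gja1 and Gja4 were both called lower. In sparse cells 4.44% were called lower with VEC, Gja1 among them, and 5.98% higher. In VEC-null cells 7.98% were called lower at confluence, Gja1 among them, and 9.26% higher, Gja4 among them. In VEC-positive cells 7.38% were called lower and 8.69% higher at confluence, and neither Gja1 nor Gja4 was called. Since the genes were selected on these contrasts, nothing is read from their calls.

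Among the 9224 genes, ordered by the log2 difference, Gja1 had rank 1 from the lowest in sparse cells and rank 3 in confluent cells for VEC-positive against VEC-null. It had rank 136 from the lowest for density in VEC-null cells. Gja4 had rank 11 from the lowest for VEC in confluent cells and rank 30 from the highest for density in VEC-null cells. These ranks describe genes that were picked for their size.

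**Figure D2:**
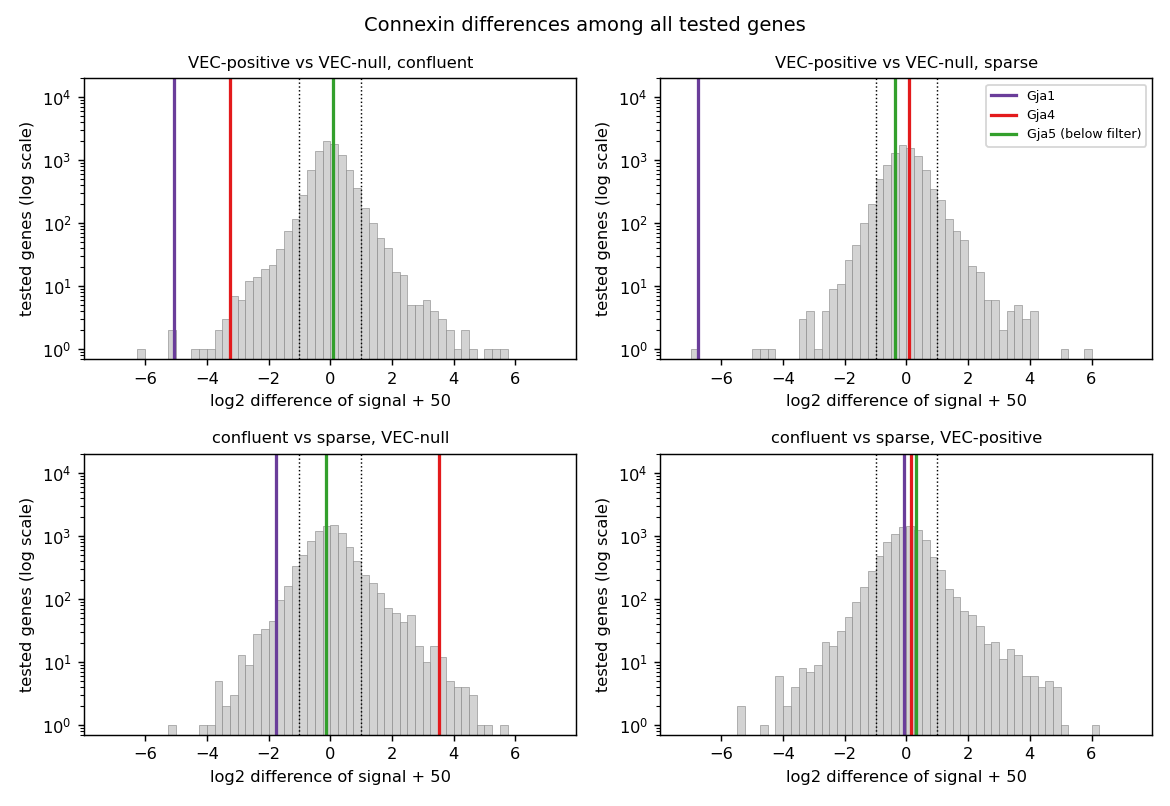
Number of tested genes (log axis) by log2 difference of signal + 50, in bins of 0.25, for the 4 comparisons; coloured lines are Gja1 (first probe set), Gja4 and Gja5, and dotted lines mark 1 log2 unit in each direction. Gja1 lies at -5.07 and -6.76 in the upper panels, and Gja4 at -3.26 (upper left) and 3.52 (lower left), in the tails of the distributions, while all 3 genes lie near 0 in VEC-positive cells (lower right).

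The 3 genes lie on different chromosomes. On chromosome 10, which carries Gja1, the median of 452 tested genes was 0.45 with VEC at confluence and 0.37 with VEC in sparse cells, against -0.01 and -0.03 over all genes, so Gja1 was lower on a chromosome whose genes were on the whole higher. On chromosome 4, with Gja4, the medians of 562 genes were -0.09 and -0.03, and on chromosome 3, with Gja5, those of 464 genes were -0.10 and -0.16.

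Of 17 other connexin genes, 8 were on the chips with 11 probe sets, and only Gjc1 passed the filter. Gjc1, the gene of Cx45, read 175.1 ± 2.3 when sparse and 195.4 ± 10 when confluent in VEC-null cells, and 137.2 ± 30 and 96.8 ± 4.6 in VEC-positive cells (SD, n = 2 copies). Its log2 differences between VEC-positive and VEC-null cells were -0.74 when confluent and -0.28 when sparse, under the threshold for a call. The 9 chip A probe sets below the filter, of 7 genes, read between 1.5 and 148.2. The chip B probe set of Gja3, a lens connexin gene, read between 91.3 and 292.7 and its copies of 1 cRNA differed widely, such as 139.2 and 292.7 in confluent VEC-positive cells.

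Among 6 pannexin and other large-pore channel genes, 3 were on the chips and all passed the filter. Panx1, which forms single-membrane channels that release ATP, read 553.2 ± 2.4 when sparse and 175.7 ± 120 when confluent in VEC-null cells. In VEC-positive cells it read 663.3 ± 73 when sparse and 235.4 ± 25 when confluent. It was called lower at confluence in VEC-null cells (-1.52) and in VEC-positive cells (-1.32), and fell with density in the limma test described below (log2 -1.42, SE 0.30, adjusted p = 0.0022). The call in VEC-null cells was lost without the first copies, since the confluent copies read 92.6 and 258.8, and the call in VEC-positive cells was lost with an offset of 200 in place of 50.

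P2rx7, an ATP-gated channel, had 3 tested probe sets that disagreed. Its chip A probe set was called in no comparison, with -0.61 for VEC in confluent cells. The chip B probe sets were called lower with VEC in confluent cells (-2.03 and -2.52) and in sparse cells (-1.26 and -2.27). They were called higher at confluence in VEC-null cells (1.24 and 1.02). Lrrc8a, a subunit of volume-regulated anion channels, was higher at confluence by 0.81 in VEC-null and 0.63 in VEC-positive cells, which was under the threshold.

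**Figure D3:**
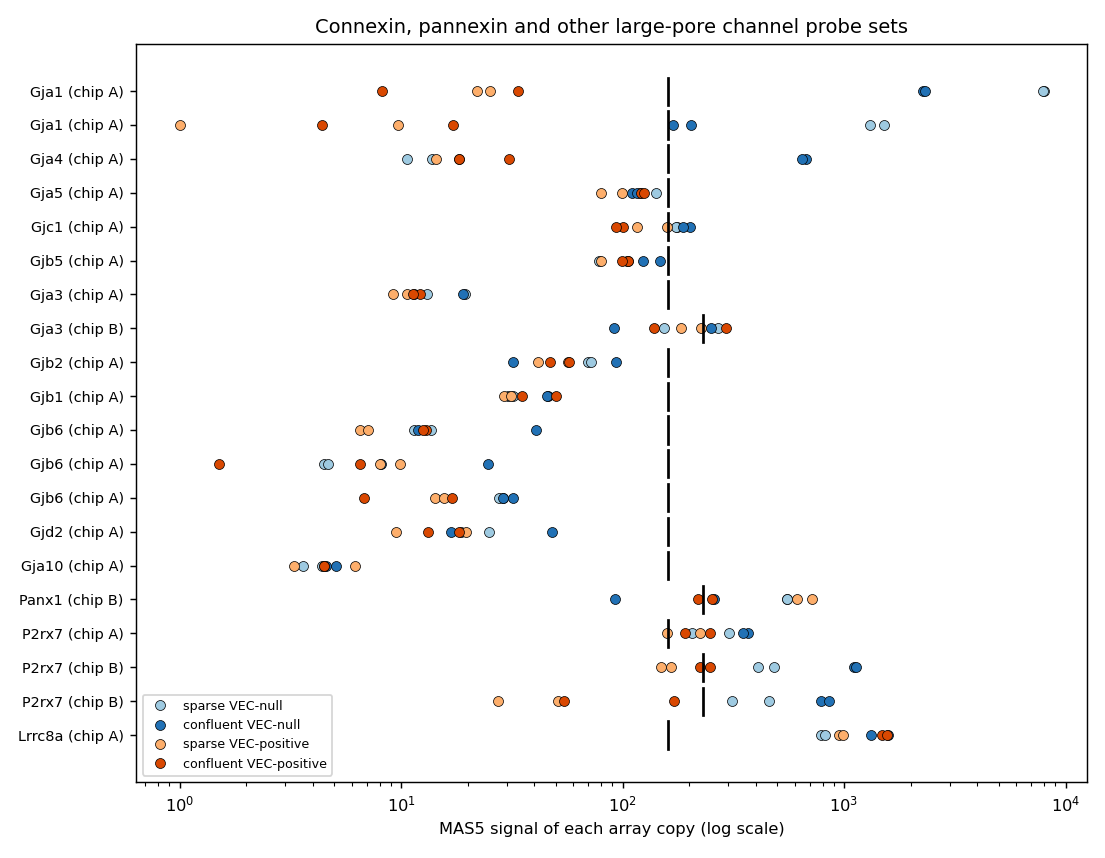
MAS5 signal (log axis) on every array copy for each probe set of the connexin genes, Panx1, P2rx7 and Lrrc8a; colours are the 4 conditions and the short vertical bar on each line is the filter of its chip (160.3 on chip A, 231 on chip B). Signals of different probe sets are not on a common scale of abundance; apart from both Gja1 probe sets, Gja4 and Gjc1, the connexin probe sets did not pass the filter.

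For genes around the connexins, an additive model of VEC and density was fitted with limma to the 4 cRNA samples of each chip after averaging the copies, with Benjamini-Hochberg adjustment of p-values over 14301 probe sets. The model has 1 residual degree of freedom per chip, and it was not used for Gja1, Gja4 and Gja5. That residual is the change of the VEC difference with density, moderated over genes, and not a spread between cultures. A gene whose VEC difference depends on density therefore has a larger residual and passes less easily. The SE and p-values below hold within these limits. At an adjusted p of 0.05, the VEC effect passed for 1.55% of genes as higher and 0.726% as lower, and the density effect for 6.62% as higher at confluence and 4.86% as lower. An unadjusted p under 0.05 was reached by 13.4% of the 9224 genes for VEC and by 25.4% for density.

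The partners, kinases and trafficking proteins of connexins, such as the scaffold Tjp1, which binds the Cx43 tail, and kinases that phosphorylate it, had 37 tested genes. None of the 37 passed the limma VEC effect, and 0 had an unadjusted p under 0.05, against 13.4% over all genes. By the call rule, 0 were higher and 1 lower with VEC in confluent cells, and 3 were higher and 0 lower in sparse cells. Over all genes 4.73% were higher and 3.51% lower in the first comparison, and 5.98% and 4.44% in the second. The 1 lower gene was Gsk3b, a kinase (-1.28, though its other probe sets gave -0.40 and -0.09). The 3 higher ones were Map1lc3b, an autophagosome protein (1.49), Smurf2, a ubiquitin ligase (1.31), and Vamp8, a vesicle fusion protein (1.30).

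With density, 2 of the 37 partners passed the limma test, both lower at confluence, a share near the 4.86% over all genes. Prkca, protein kinase C alpha, fell by 1.63 on the log2 scale (SE 0.28, adjusted p = 0.0055), and Cdh2, N-cadherin, fell by 1.14 (SE 0.29, adjusted p = 0.036). Cdh2 did not pass with an offset of 200 or with no filter, and Prkca was not among the passing genes with the filter at the 75th percentile. Partners also passed as higher under other settings, 3 of 32 tested with that filter (Cdh5, Dab2 and Tjp1), 2 after quantile normalisation (Ctnnb1 and Tjp1) and 1 without the first copies (Dab2). By the call rule 6 partners were higher and 2 lower at confluence in VEC-null cells, and 1 was higher and 3 lower in VEC-positive cells. The shares over all genes were 9.26% higher and 7.98% lower in VEC-null cells, and 8.69% and 7.38% in VEC-positive cells. With an offset of 200 the 6 and 2 became 4 and 1, and the 1 and 3 became 1 and 2. Tjp1 was called higher at confluence in VEC-null cells (1.32) and was 0.87 higher in VEC-positive cells. The median over the 37 genes was 0.15 in VEC-null and -0.16 in VEC-positive cells, against -0.01 and 0.04 over all genes.

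Arterial genes, a list of endothelial Notch components and other genes known from arteries, were described beside Gja4 and Gja5, which are themselves arterial connexin genes. In VEC-null cells 15 of 23 tested arterial genes were called higher at confluence and 1 lower, with a median of 1.40. All genes had 9.26% higher and 7.98% lower there, with a median of -0.01. In VEC-positive cells 8 were called higher and 0 lower, with a median of 0.58, against 8.69% and 7.38% and a median of 0.04 over all genes. The limma density effect passed for 11 as higher and 1 as lower, against 6.62% and 4.86% over all genes. With no filter 8 passed as higher and 0 as lower. Sox18, a transcription factor of endothelial cells, rose the most (log2 4.86, SE 0.33, adjusted p = 2e-05). Dll1, a Notch ligand, rose by 2.92 (SE 0.26, adjusted p = 0.0001), and Nrp1, a receptor for VEGF and semaphorins, by 1.99 (SE 0.31, adjusted p = 0.0037). Igfbp3, which binds insulin-like growth factors, rose by 2.86 (SE 0.52, adjusted p = 0.0081), and the receptor gene Notch1 by 1.77 (SE 0.35, adjusted p = 0.012). Igfbp3 did not pass with an offset of 200. Dll4, a Notch ligand of arterial and tip cells, passed as well (1.75, SE 0.50, adjusted p = 0.024), although its difference was 3.32 in VEC-null and 0.18 in VEC-positive cells. Dll4 passed in the settings with an offset of 200, with no filter and without the second copies, and in none of the other 6 alternatives. The 1 gene that fell was Cxcl12, a chemokine (log2 -1.38, SE 0.36, adjusted p = 0.040), which did not pass without the variance trend, with an offset of 200 or with no filter. With an offset of 200 the 8 calls in VEC-positive cells became 4.

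Between the lines, 2 of the 23 arterial genes were called higher and 4 lower with VEC in confluent cells, and 4 higher and 1 lower in sparse cells. The shares over all genes were 4.73% higher and 3.51% lower in confluent cells, and 5.98% and 4.44% in sparse cells. None passed the limma VEC effect, for which 5 of 23 had an unadjusted p under 0.05, against 13.4% over all genes. With the filter at the 75th percentile Klf4 passed as higher and Igfbp3 as lower, without the first copies Igfbp3 passed as lower, and without the second copies Klf4 passed as higher. The 4 lower in confluent VEC-positive cells were Igfbp3 (-3.59), Dll4 (-3.00), Depp1 (-1.44) and Hey1, a Notch target (-1.11). The 2 higher were Klf4, a transcription factor induced by flow (1.16), and Acvrl1, a BMP receptor (1.02, with 0.18 and 0.64 for its other probe sets). Neither of these 2 was called without the first copies or with an offset of 200, and of the 4 higher genes in sparse cells 1 was called with that offset. Under the same 2 settings the 4 lower calls became 3. The 4 genes called higher with VEC in sparse cells included Klf2 (1.66) and the receptor gene Notch4 (1.32), and 1 arterial gene was called lower there. The median over the 23 genes was -0.34 when confluent and 0.17 when sparse, against -0.01 and -0.03 over all genes.

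Venous and lymphatic genes had 4 of 8 tested members called higher and 0 lower at confluence in each line. All genes had 9.26% higher and 7.98% lower in VEC-null cells, and 8.69% and 7.38% in VEC-positive cells. The limma density effect passed for 3 of the 8, all higher at confluence, against 6.62% of all genes. Tek, the angiopoietin receptor, rose by 2.95 (SE 0.29, adjusted p = 0.00019), Flt4, the VEGF-C receptor, by 2.02 (SE 0.39, adjusted p = 0.0098) and Nrp2 by 1.17 (SE 0.29, adjusted p = 0.0081). Vwf, von Willebrand factor, was called higher with VEC in confluent cells (5.16) and Aplnr, the apelin receptor, by 1.82. In sparse cells Emcn (1.14) and Flt4 (1.06) were called higher with VEC. With an offset of 200 each of these 2 pairs was reduced to 1 call. The shares of all genes called higher with VEC were 4.73% in confluent and 5.98% in sparse cells. The VEC effect passed for 0 of the 8 in limma, with 2 at an unadjusted p under 0.05, against 13.4% over all genes. Vwf passed as higher without the first copies.

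**Figure D4:**
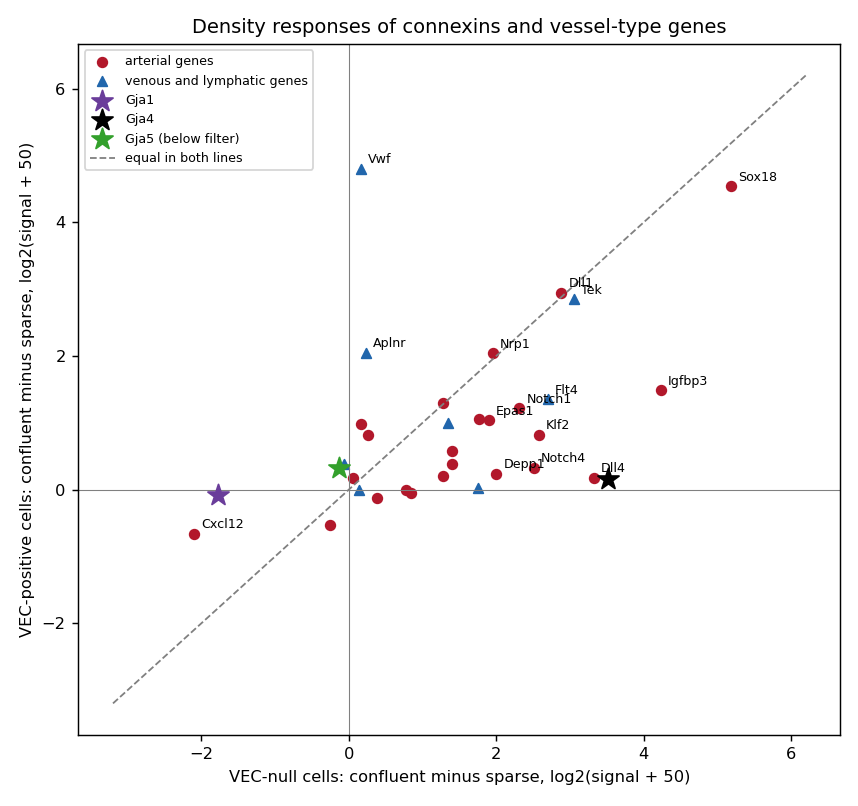
Confluent minus sparse difference of log2(signal + 50) in VEC-null cells (x axis) against that in VEC-positive cells (y axis); points are arterial genes, triangles venous and lymphatic genes, stars the 3 connexin genes, and the dashed line marks equal differences. Gja4 (3.52, 0.16) lies beside Dll4 (3.32, 0.18) at the lower right, Sox18 and Dll1 lie near the dashed line, and Gja1 lies left of 0 at -1.77.

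The genes with the most similar profile were found for each tested probe set of Gja1 and Gja4. Each profile of 4 condition means of log2(signal + 50) was centred on its own mean, and the root mean square (RMS) distance was taken. The points share arrays and scaling, and with 4 means the measure is a description. For Gja4 the nearest gene was Dll4 at a distance of 0.10 (Pearson r = 1.0 over 4 means). Dll4 read 85.1 ± 16 in sparse VEC-null, 1309.1 ± 290 in confluent VEC-null, 99.2 ± 20 in sparse VEC-positive and 135.1 ± 110 in confluent VEC-positive cells (SD, n = 2 copies). The distance was taken between means and leaves out this spread, which was wide in confluent VEC-positive cells. A distance as small as 0.10 is therefore finer than the Dll4 copies allow.

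The next nearest to Gja4 were Adamtsl1, a secreted matrix protein (RMS 0.15), Sh3gl3, an endophilin (0.16), Postn, the matrix protein periostin (0.17), and Serpina3n, a protease inhibitor (0.19). All 5 were high in confluent VEC-null cells alone, as Postn, with a mean of 704.9 there and between 5.2 and 10.9 in the other conditions. This follows from the search, which picked genes by their likeness to Gja4, and is no result about them. Gja4 and all 5 genes passed the filter only through that condition. Dll4 ranked 6 with an offset of 16 and 9 with an offset of 200 in place of 50, so the first place depends on the offset, and 3 of the 5 genes stayed among the 5 nearest in each case.

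For the first Gja1 probe set the nearest profiles were farther off. They were Sox11, a transcription factor of neural and mesenchymal progenitors (RMS 0.94), Pmepa1, a TGF-beta target (1.00), Oasl1, an interferon-induced gene (1.08), Mest, an imprinted gene (1.59), and Bhlhb9 (1.60). Pearson r over 4 means was between 0.882 and 0.992. All 5, picked for their likeness to Gja1, were lower in VEC-positive cells. Sox11, Pmepa1 and Mest, however, were higher in confluent than in sparse VEC-null cells, where Gja1 was lower. The second Gja1 probe set was nearest to Slc6a15, an amino acid transporter (RMS 0.71), Bhlhb9 (0.76), the chemokine genes Cxcl10 (0.77) and Ccl5 (0.88), and Pde3b, a phosphodiesterase (0.94). Of these 5 genes, 2 stayed among the 5 nearest with an offset of 16 and 2 with an offset of 200, and Slc6a15 had rank 5 with an offset of 16. For the first probe set 4 and 3 of the 5 stayed.

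**Figure D5:**
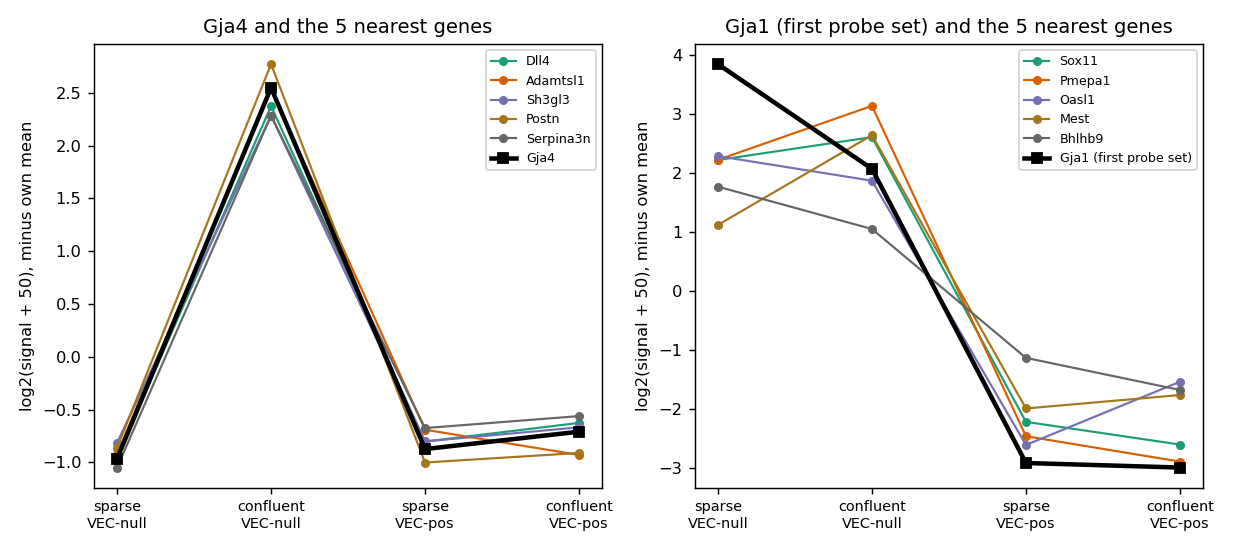
Condition means of log2(signal + 50) minus each gene's own mean, for Gja4 (left) and the first Gja1 probe set (right) in black and the 5 nearest genes in colour. The genes near Gja4, picked for their likeness to it, peak in confluent VEC-null cells, with RMS distances of 0.10 to 0.19. Those near Gja1 lie farther off, at 0.94 to 1.60.

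Regulators that have been described for connexin genes form a list of transcription factors and TGF-beta pathway genes. Of 25 tested, 4 rose and 2 fell in the limma density effect, against 6.62% and 4.86% over all genes. Fosl1, a subunit of AP-1, fell by 2.90 on the log2 scale (SE 0.32, adjusted p = 0.00041), and Myc fell by 2.45 (SE 0.28, adjusted p = 0.00061). Tgfbr2 rose by 2.59 (SE 0.29, adjusted p = 6.6e-07), Tgfbr1 by 1.81 (SE 0.33, adjusted p = 0.0075), the ligand gene Tgfb1 by 1.74 (SE 0.32, adjusted p = 0.0079) and the repressor Zeb1 by 1.26 (SE 0.32, adjusted p = 0.035). Zeb1 did not pass with no filter or after median centring, and Tgfbr1 was not among the passing genes with the filter at the 75th percentile. Another ligand gene, Tgfb2, passed as lower after quantile normalisation, after median centring and without the first copies.

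Fosl1 read 3357.4 ± 5 when sparse and 302.8 ± 9.8 when confluent in VEC-null cells, and 1895.2 ± 64 and 289.6 ± 30 in VEC-positive cells (SD, n = 2 copies). Both lines thus had the higher Fosl1 signal when sparse, and among sparse cells the VEC-null line had the higher one. Gja1 was bright in VEC-null cells alone, and brighter when sparse. Any link between Fosl1 and the Gja1 signal was not tested. None of the 25 regulators passed the limma VEC effect, for which 2 had an unadjusted p under 0.05, a share below the 13.4% over all genes. By the call rule 1 was higher and 1 lower with VEC in confluent cells, Gata4 (1.10) and Myc (-1.15), both uncalled with an offset of 200. In sparse cells only Snai2, a repressor linked to mesenchymal transition, was called, as lower (-1.35). Among all genes 4.73% were higher and 3.51% lower with VEC in confluent cells, and 5.98% and 4.44% in sparse cells. These few calls are read as no result about the regulators. At confluence 4 were higher and 2 lower in VEC-null cells, and 5 higher and 3 lower in VEC-positive cells, which became 3 and 2 with an offset of 200. The shares over all genes were 9.26% higher and 7.98% lower in VEC-null cells, and 8.69% and 7.38% in VEC-positive cells.

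The endothelial label was checked on 12 markers, of which 11 were on the chips and passed the filter. In VEC-null cells their summed signal was 11389 and 11470 on the copies when sparse and 46465 and 47229 when confluent. In VEC-positive cells it was 18437 and 19321 when sparse and 41064 and 42395 when confluent. The Cdh5 probe set, for VE-cadherin itself, read 1268.5 and 1399.1 in sparse and 2607.9 and 2566.5 in confluent VEC-null and VEC-positive cells, so it did not separate the lines and is no check of the labels. Vwf was near the bottom of the scale in all but confluent VEC-positive cells, at 14.5, 21.9 and 42.1 against 2516.4.

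Some markers of other cells were highest, as Gja4 was, in confluent VEC-null cells. The 14 smooth muscle and fibroblast markers, of which 9 passed the filter, summed to 6168 to 6601 in confluent VEC-null cells, 3853 to 4154 in confluent VEC-positive cells and 2302 to 2764 in sparse cells. Of the 9, Pdgfrb (327.6 against 9.5 to 13.0), Postn and Col3a1 (1564.8 against 49.2 to 230.2) shared the pattern of Gja4. Pdgfrb and Postn passed the filter only through confluent VEC-null cells, so the share of tested markers with this pattern depends in part on the filter. Postn was also picked above for its likeness to Gja4. The other 6 of the 9 markers did not share the pattern. Smtn read 2096.1 in VEC-null and 2004.3 in VEC-positive confluent cells, and Col1a2 read 896.1 and 967.8. Acta2, smooth muscle actin, was highest in sparse VEC-null cells at 371.4 against 122.6 when confluent, and Tagln and Myh11 were highest in sparse VEC-positive cells at 164.8 and 479.6. Dcn, a fibroblast proteoglycan, was highest in confluent VEC-positive cells (586.4 against 231.2 in confluent VEC-null cells) and rose with VEC in the limma test (log2 1.47, SE 0.28, adjusted p = 0.032). Cd68, a macrophage marker, was also highest in confluent VEC-null cells, at 910.0 against 273.2 to 352.9 elsewhere, while Csf1r, the other blood marker above the filter, was highest in confluent VEC-positive cells at 351.0. The part of these markers in the Gja4 signal was not tested.

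The mesothelial and epithelial markers Krt19 and Msln were highest in sparse VEC-positive cells, one of the conditions in which Gja1 was dim. The 9 genes of that list, 3 of them above the filter, summed to 4622 to 5004 in sparse VEC-positive cells and to between 675 and 1185 in the other conditions, with Krt19 at 904.7 and Msln at 3385.7. The third, Cdh1, read 319.0 there and was higher in confluent VEC-null (394.9) and VEC-positive (406.8) cells. Embryonic stem cell markers had 1 of 8 genes above the filter and summed to between 374 and 576, blood markers 2 of 6 and 685 to 1408, and cardiomyocyte markers 3 of 7 and 765 to 1394. The part of these markers in the connexin signals was not tested. The ratio of the 3' to the 5' control signal of Gapdh, which rises as RNA degrades, lay between 0.903 and 1.23, and the copies of a cRNA correlated with r of 0.951 to 0.989 over probe sets. The median signal of an array lay between 139.8 and 174.1 for chip A and between 223.2 and 251.0 for chip B.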

How the data were processed

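Mouse endothelial cells were measured on 16 arrays, 8 of MG_U74Av2 (chip A) and 8 of MG_U74Bv2 (chip B). Per the labels, the deposited values are MAS5 signals, an intensity on a linear scale, and the authors set the scaling target of every array to 500; trimmed means were 500.1 to 500.3. Which software version was used was not given in the sources used here. The median normalisation that the series text also names was not seen in the tables. Arrays have no sequencing depth; the 2 copies per cRNA limit the precision. Same-numbered copies did not deviate together (correlations -0.0885 to 0.078 over 12 pairs).

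Of 24833 probe sets without controls, 21414 carried 1 gene symbol in the GEO platform annotation, 574 several and 2845 none. None named a connexin of interest together with another gene (0 probe sets). Whether their probes also match other transcripts was not tested, as the probe sequences were not searched. Signals were analysed as log2(signal + 50). A probe set was tested if a condition mean lay above the median of the probe-set means of its chip (the 50th percentile, 160.3 for chip A and 231 for chip B); 6997 and 7304 passed, 14301 in all. Among close definitions of this median, the one that gave the same number of tested probe sets as an earlier analysis of these data was used. A gene with several probe sets was represented by its chip A probe set, if any, and among several by the brightest, which gave 9224 genes.

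Differences were means of copies without a test. The gene lists were tested with limma 3.58.1 in R 4.3.3 on averaged copies (prior degrees of freedom 7.91 on chip A and 23.7 on chip B). The procedure had first been run on simulated chip A arrays with known additive effects. Those arrays varied by the spread of copies only, so the run is no check of the p-values given here. The genes, lists and tests were chosen with earlier results of these data known. Named were every connexin and large-pore probe set past the filter, with the others counted, at most the 6 largest called genes of a list per comparison, and the 5 nearest profiles. Offsets, filters, scalings, the variance trend and leaving out copies were tried as alternatives.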

Additional observations from a re-analysis of the deposited data

How the results depend on the processing

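Over 142 values recomputed under alternatives, 109 counted as the same, that is, a count within 1.5 times of the reported one or a connexin difference that moved by less than 1 SD of the copies. A further 24 connexin differences moved by more than that, none of them a called one that changed sign, and the remaining changes were in counts. For the connexins, leaving out copies or taking the replicate number as a block could not move a difference by more than 1 SD. These values are part of the 109, so that total overstates the stability of the connexin differences. The numbers of probe sets called by fold (1172 and 1424 for VEC in confluent and sparse cells, 2392 and 2225 for density in VEC-null and VEC-positive cells) fell to 591, 690, 1445 and 1306 with an offset of 200, and for VEC to 701 and 925 with a filter at the 75th percentile, which tests fewer probe sets. The limma VEC effect passed for 320 probe sets, for 183 without the variance trend and for 184 after quantile normalisation. It passed for 358 to 490 with the same-numbered copy of every condition left out. The cause of these changes was not tested. The density effect passed for 1578, and for 1539 to 1809 with the same-numbered copy of every condition left out.

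Gja1 for VEC in confluent cells (-5.07) was -6.05 with an offset of 16 and -3.50 with one of 200, and -1.97 by the second probe set. In sparse cells (-6.76) it was -7.65, -5.19 and -4.72 in the same order, -6.62 after quantile normalisation and -6.69 with arrays centred on the median. Its density difference in VEC-null cells (-1.77) was -1.71 with an offset of 200, -1.65 after quantile normalisation, -1.92 after median centring and -2.63 by the second probe set. Gja4 for VEC in confluent cells (-3.26) was -4.08 with an offset of 16 and -1.94 with one of 200, and in sparse cells 0.20 with an offset of 16. Its density difference in VEC-null cells (3.52) was 4.59 and 2.02 with these offsets and 3.37 after median centring, and in VEC-positive cells -0.03 after median centring. For Gja5 the density difference was -0.30 and -0.29 in VEC-null and 0.12 and 0.12 in VEC-positive cells after quantile normalisation and median centring, and 0.16 in VEC-positive cells with an offset of 200. The change with the offset follows from its construction, since it damps dim signals.

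With the same-numbered copy of every condition left out, the called counts were 1429 to 1553, 1713 to 1805, 2671 to 2701 and 2533 to 2617. Each condition then had 1 array, so a call rested on the fold threshold alone and the rule was looser. Gja1 gave -5.32 to -4.81, -6.79 to -6.74, -1.80 to -1.75 and -0.37 to 0.22, Gja4 gave -3.41 to -3.11, 0.09 to 0.10, 3.50 to 3.53 and 0.00 to 0.33, and Gja5 gave 0.07 to 0.09, -0.57 to -0.19, -0.25 to -0.03 and 0.23 to 0.40, each in the order VEC confluent, VEC sparse, density VEC-null, density VEC-positive. A limma fit on array copies, which takes copies for replicates, called 1131, 1388, 2356 and 2194 probe sets, and 1133, 1389, 2362 and 2196 with the replicate number as a block. The block leaves every connexin difference as it was (Gja1 -5.07) by construction, since each condition has both copies, and so is no check on them. No setting moved the median over all probe sets by more than 0.10. The search for nearest profiles was repeated with settings chosen after seeing the data. Another probe set could not be tried for Gja4 and Gja5, which have 1 each. With dim signals of 8.2 to 33.8 the size of a difference rests on the offset, and 1 cRNA per condition leaves no check between cultures.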
